A study of Homo sapiens with 6 samples.

Results

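The genes described here encode the urokinase and tissue-type plasminogen activators (*PLAU*, *PLAT*), the urokinase receptor (*PLAUR*), the serpin protease nexin 1 (*SERPINE2*), the tissue factor pathway inhibitors (*TFPI*, *TFPI2*), tissue factor (*F3*), and thrombomodulin (*THBD*). They were taken by gene symbol, 8 of the 60623 genes in the count table. The choice was made with the response to mocetinostat in view, and *TFPI2* was taken for the size of its response, so the values of the 8 genes are given as a description, without a test. They were measured by RNA-Seq in TC28a2, an immortalized line derived from human chondrocytes, in which 1 cell line stands for all samples. The 3 samples of one condition received the class I histone deacetylase (HDAC) inhibitor mocetinostat at 2 μM, and the 3 of the other received its solvent DMSO, each for 24 hours. The paper describes the samples of a condition as independent experiments, and the p-values below measure the spread between these samples only.

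Urokinase and tissue-type plasminogen activator cut the zymogen plasminogen into plasmin, a protease that degrades fibrin and matrix proteins and activates matrix metalloproteinases. The urokinase receptor holds urokinase at the cell surface, and serpins such as protease nexin 1 trap the activators in inactive complexes. In cartilage, this system is studied as a source of pericellular matrix breakdown. Tissue factor starts coagulation by binding factor VIIa, TFPI blocks that complex and factor Xa through its Kunitz domains, and thrombomodulin turns thrombin toward activating protein C. TFPI-2, in spite of its name, is chiefly an inhibitor of plasmin and other trypsin-like proteases and is deposited in the extracellular matrix.

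The samples held from 1619344 to 11031132 counts, with mocetinostat replicates 2 and 3 below every DMSO sample, which limits the precision for genes with few reads there. Of 15 chondrocyte markers, 8 reached a mean of 1 CPM (counts scaled to a common library size with TMM factors) with DMSO and 14 with mocetinostat, *SOX9* lay between 95.5 and 121.6 CPM in the DMSO samples, and *CNMD* was at 0 in all 6 samples. Endothelial cells are a known source of several of the 8 gene products, and all 8 genes of an endothelial marker list had a higher mean with mocetinostat. Their summed level went from 8.14 to 12.1 CPM in the DMSO samples to 50.2 to 61.1 CPM in the mocetinostat samples, with none at 0 in every sample. Much of this sum was *KDR*, which went from 0.337 to 24.4 CPM. *CDH5* and *TIE1* differed little, from 3.04 to 3.12 and from 2.28 to 2.56 CPM. A higher mean with mocetinostat was not particular to this list, since 14 of the 15 chondrocyte markers had one too. The summed level of 6 macrophage markers was 5.75 to 11.04 CPM with DMSO and 9.72 to 15.5 CPM with mocetinostat, and that of 6 fibroblast markers 4502 to 5451 CPM and 4040 to 4406 CPM. These sums rest on few genes. Only 1 macrophage marker, *CD14* (0.915 to 7.46 CPM), and 4 fibroblast markers had a higher mean with mocetinostat, and the others had a lower one. All samples are cultures of the TC28a2 line, so the lists describe RNA levels in this line and not a mixture of tissue cells. The part of these markers in the results below was not tested. In bulk RNA, a change in how many cells express a gene and a change in RNA per cell cannot be told apart.

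*TFPI2* and *TFPI*, which differed in direction, and *PLAU* and *F3* are shown with the sequence upstream of a transcription start, because promoters are where histone acetylation and many transcription factors act. The RefSeq promoter table (GRCh38.p14) held 8 starts for 6 of the 8 genes. Each window covers the 250 bases before a start, written 5′ to 3′ on the strand of the gene, and is printed without the bases that other transcripts of the same gene use as exons. Capitals mark matches, on either strand, to the GC box GGGCGG bound by SP and KLF factors, the CACCC box of KLF factors, the AP-1 motif TGANTCA, the TATA box TATAAA, the ETS core CCGGAA, and the E-box CACGTG.

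*TFPI2*, chr7:93890754-93891003, minus strand: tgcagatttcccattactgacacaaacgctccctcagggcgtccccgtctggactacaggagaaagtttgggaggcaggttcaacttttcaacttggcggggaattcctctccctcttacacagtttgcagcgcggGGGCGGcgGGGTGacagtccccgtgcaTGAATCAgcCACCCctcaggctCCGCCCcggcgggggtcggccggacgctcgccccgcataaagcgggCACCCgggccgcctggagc
*TFPI*, chr2:187554493-187554685, minus strand: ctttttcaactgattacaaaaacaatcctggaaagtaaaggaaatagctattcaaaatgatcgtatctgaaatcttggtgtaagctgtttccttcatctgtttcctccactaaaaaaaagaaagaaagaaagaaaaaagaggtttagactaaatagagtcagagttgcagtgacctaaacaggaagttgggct
*PLAU*, chr10:73910882-73911103, plus strand: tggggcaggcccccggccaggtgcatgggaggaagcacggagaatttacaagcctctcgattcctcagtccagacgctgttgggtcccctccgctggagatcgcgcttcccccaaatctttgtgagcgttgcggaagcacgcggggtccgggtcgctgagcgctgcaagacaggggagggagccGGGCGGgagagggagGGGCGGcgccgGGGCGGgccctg
*F3*, chr1:94541760-94542009, minus strand: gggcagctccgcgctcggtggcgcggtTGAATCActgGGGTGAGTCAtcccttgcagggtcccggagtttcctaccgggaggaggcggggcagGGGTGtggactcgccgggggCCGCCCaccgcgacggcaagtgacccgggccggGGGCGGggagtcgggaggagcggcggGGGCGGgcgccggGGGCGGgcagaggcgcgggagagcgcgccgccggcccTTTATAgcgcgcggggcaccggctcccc

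The *TFPI2* window was rich in CpG, with 64.4% G and C and 20 CpG, and held 2 GC boxes, 3 CACCC boxes, and 1 AP-1 motif. The *TFPI* window was AT-rich, with 38.4% G and C and 2 CpG over its 250 bases, and none of the 6 motifs was found in it. This start lies 11.32 kb inside the most distant *TFPI* start in GENCODE, so it is 1 of several. *PLAU* had a start with 3 GC boxes and 68.8% G and C, printed above, and one upstream with none of the 6 motifs and 46.8%. The *F3* window was the richest, with 78.0% G and C, 4 GC boxes, 2 AP-1 motifs, 2 CACCC boxes, of which 1 overlaps an AP-1 motif, and a TATA box. The *PLAUR* window, which other *PLAUR* transcripts use as exon, held 1 AP-1 motif and 1 CACCC box. The windows of *SERPINE2* held no AP-1 motif, 1 GC box and the E-box at one start, and 2 GC boxes and 1 CACCC box at the other. Over all 35116 promoters in the table the median was 58.0% G and C and 11 CpG, and 42.6% held a GC box, 54.7% a CACCC box, 6.57% an AP-1 motif, 10.7% a TATA box, 14.5% the ETS core, and 6.34% the E-box. A match to these letters describes the sequence and is no evidence of binding.

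All 8 genes passed the expression filter with the 13966 genes tested. After mocetinostat treatment, 5 of them (*TFPI2*, *PLAT*, *PLAUR*, *SERPINE2*, and *F3*) were higher and 2 (*TFPI* and *PLAU*) were lower in all 3 samples than in any DMSO sample, and *THBD* overlapped between conditions. Among all genes tested, 66.5% did not overlap between conditions, 33.7% being higher and 32.8% lower with mocetinostat. A log2 fold change over 1 was seen in 4 of the 8 genes and one under -1 in 1, where 20.4% and 8.39% of all genes tested lay past these values. Because the genes were chosen with this comparison known, nothing is read from these counts. The median log2 fold change was 0.86 for the 8 genes and -0.0021 for all genes tested.

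**Figure D1:**
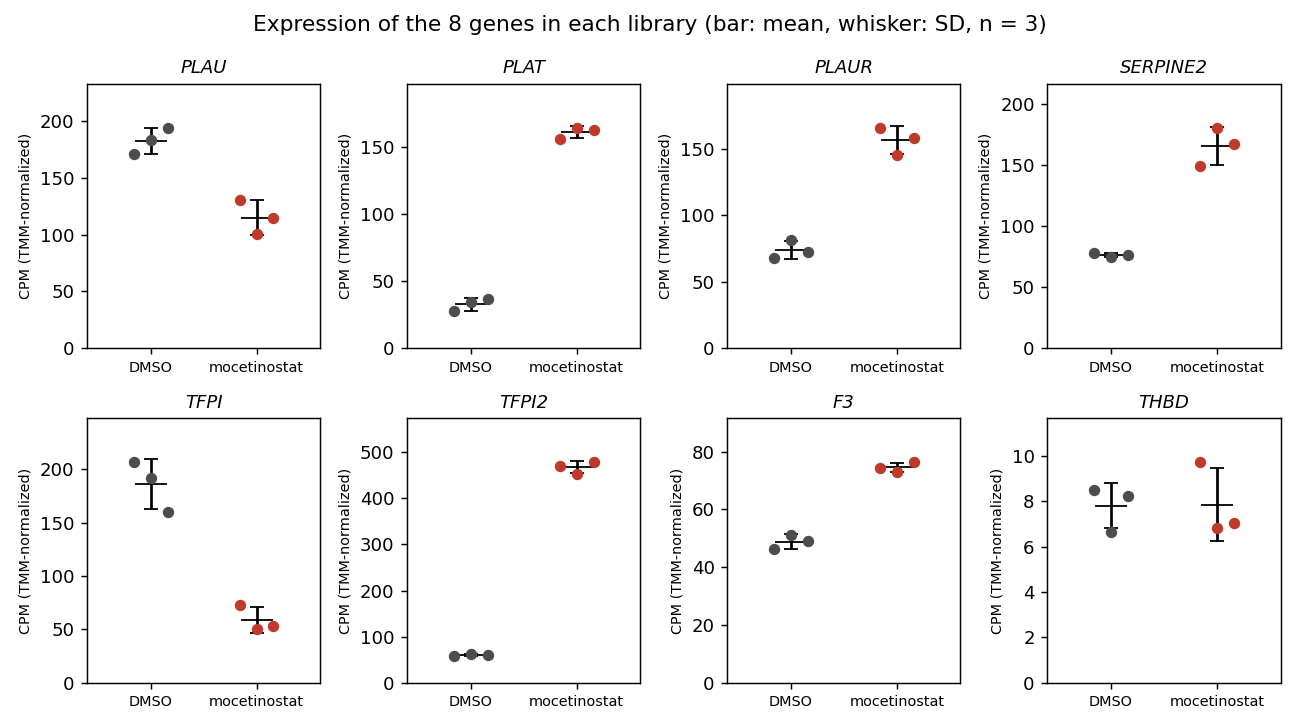
Expression of the 8 genes in CPM (TMM-normalized, y axis from 0) in each DMSO sample (gray) and mocetinostat sample (red); bars are means and whiskers SD, n = 3. The mocetinostat samples of *TFPI2* sit between 452.4 and 477.4 CPM against 58.1 to 62.1 CPM with DMSO, those of *TFPI* and *PLAU* lie below the DMSO samples, and those of *THBD* overlap with them.

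Of the plasminogen activators, the urokinase gene *PLAU* (ENSG00000122861, chromosome 10 of GRCh38 from 73909177 to 73917496, plus strand) was measured at 170.8, 183.0, and 194.2 CPM in DMSO replicates 1, 2, and 3. In mocetinostat replicates 1, 2, and 3 it stood at 130.4, 100.4, and 114.4 CPM. Every mocetinostat sample lay below every DMSO sample. The means were 182.7 ± 11.7 and 115.1 ± 15.0 CPM (SD, n = 3), and the log2 fold change was -0.64 (standard error 0.10). Exons of *C10orf55* on the opposite strand cover 31.0% of the *PLAU* exons, and strand use in the counting is not given in the sources used here. *C10orf55* itself held at most 8 counts in any sample, against 162 to 1888 for *PLAU*.

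The gene of tissue-type plasminogen activator, *PLAT* (ENSG00000104368, chromosome 8 from 42174718 to 42207709, minus strand), behaved in the opposite way. Its values were 27.4, 34.2, and 36.5 CPM with DMSO and 156.0, 164.2, and 162.5 CPM with mocetinostat. The conditions were far apart relative to the spread within each. From 32.7 ± 4.74 to 160.9 ± 4.32 CPM (SD, n = 3), *PLAT* was 4.96-fold higher (log2 fold change 2.31, standard error 0.12). *PLAT* took 13.8% to 15.8% of the reads of the 2 activator genes in the DMSO samples and 54.5% to 62.1% in the mocetinostat samples. The 95% exact Clopper-Pearson intervals, which cover counting error only, ran from 12.4% to 18.1% over the DMSO samples and from 51.9% to 66.7% over the mocetinostat samples.

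*PLAUR*, the gene of the receptor that anchors urokinase (ENSG00000011422, chromosome 19 from 43646095 to 43670547, minus strand), was at 67.8, 81.0, and 72.4 CPM in the DMSO samples and at 165.9, 145.6, and 158.3 CPM in the mocetinostat samples. The lowest mocetinostat sample was above the highest DMSO sample. The means were 73.7 ± 6.73 and 156.6 ± 10.3 CPM (SD, n = 3), which is 2.15-fold higher, or 1.10 on the log2 scale (standard error 0.10). The receptor and its ligand therefore differed in direction, with *PLAUR* higher and *PLAU* lower.

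*SERPINE2* encodes protease nexin 1, a serpin that inhibits thrombin, urokinase, and plasmin and is bound to cell surface glycosaminoglycans (ENSG00000135919, chromosome 2 from 223975045 to 224039318, minus strand). It was at 78.0, 74.3, and 76.1 CPM with DMSO and at 148.9, 180.3, and 166.6 CPM with mocetinostat. The DMSO samples were closely grouped and the mocetinostat samples were spread more widely above them. The means were 76.1 ± 1.82 and 165.3 ± 15.8 CPM (SD, n = 3), and the log2 fold change was 1.10 (standard error 0.10), the same to 2 decimals as that of *PLAUR*.

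*TFPI2*, the Kunitz-type inhibitor of plasmin (ENSG00000105825, chromosome 7 from 93885396 to 93890753, minus strand), had the largest fold change of the 8 genes. It stood at 58.1, 62.1, and 59.7 CPM in DMSO replicates 1, 2, and 3 and at 470.3, 452.4, and 477.4 CPM in mocetinostat replicates 1, 2, and 3. Both sets of values were tight, and the gap between them was far wider than either. The means were 59.9 ± 2.00 and 466.7 ± 12.9 CPM (SD, n = 3), which is 7.81-fold higher, or 2.97 on the log2 scale (standard error 0.09). This fold change was above that of 93.3% of all genes tested. The smallest number of reads behind these values was 298, in DMSO replicate 2, and the largest was 2372, in mocetinostat replicate 1. Exons of *GNGT1* on the opposite strand cover 1.80% of the *TFPI2* exons, and *GNGT1* was at 0 counts in 5 samples and at 4 in mocetinostat replicate 3.

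*TFPI*, the Kunitz-type inhibitor of the tissue factor complex (ENSG00000003436, chromosome 2 from 187464230 to 187565760, minus strand), was the gene with the largest decrease. Its values were 206.4, 192.0, and 160.3 CPM with DMSO and 72.8, 50.8, and 53.1 CPM with mocetinostat. All 3 mocetinostat samples lay below the DMSO samples, and replicate 1 of each condition was the highest. The means were 186.3 ± 23.6 and 58.9 ± 12.1 CPM (SD, n = 3), 3.06-fold lower with mocetinostat, and the log2 fold change was -1.61 (standard error 0.11). The 2 inhibitors, which share the Kunitz fold and a name, were thus at opposite ends of the 8 genes. Exons of *CALCRL-AS1* on the opposite strand cover 1.01% of the *TFPI* exons.

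*F3*, the gene of tissue factor, the cell surface receptor that TFPI restrains (ENSG00000117525, chromosome 1 from 94529173 to 94541759, minus strand), was at 46.2, 51.2, and 49.1 CPM with DMSO and at 74.3, 73.1, and 76.3 CPM with mocetinostat. The conditions did not overlap, although the difference was the smallest among the 5 genes that were higher. The means were 48.8 ± 2.51 and 74.6 ± 1.58 CPM (SD, n = 3), 1.53-fold higher (log2 fold change 0.62, standard error 0.12). The initiator of coagulation was higher and its inhibitor *TFPI* lower in the same samples.

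*THBD*, the gene of thrombomodulin, the thrombin cofactor that endothelial cells carry (ENSG00000178726, chromosome 20 from 23045633 to 23049672, minus strand), was the gene with the fewest reads. Its counts were 94, 32, and 56 in the DMSO samples and 49, 11, and 17 in the mocetinostat samples. In CPM these were 8.50, 6.66, and 8.25 with DMSO and 9.71, 6.82, and 7.05 with mocetinostat, so the conditions overlapped. The mean was 7.81 ± 0.998 CPM with DMSO and 7.86 ± 1.61 CPM with mocetinostat (SD, n = 3). Its log2 fold change of 0.06 had a standard error of 0.29, so a difference was not detectable at this depth.

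Levels can be compared between genes only per length, and for this CPM was divided by the length of the merged exons in kilobases. With DMSO, *PLAU* had the highest level, at 62.0 ± 3.98 CPM per kb (SD, n = 3), followed by *TFPI2* at 24.5 CPM per kb. *F3*, *PLAUR*, and *TFPI* came next at 16.9, 16.5, and 15.9 CPM per kb, with ranges that overlapped. *SERPINE2* at 8.50, *PLAT* at 4.21, and *THBD* at 1.93 CPM per kb had the lowest levels, each apart from the next. With mocetinostat, *TFPI2* led at 191.0 CPM per kb, above the level of 99.2% of the genes tested, where with DMSO it was above 87.4%. *PLAU* and *PLAUR*, at 39.0 and 35.1 CPM per kb, then overlapped, *F3* stood at 25.8, and *PLAT* and *SERPINE2* overlapped at 20.7 and 18.5 CPM per kb. *TFPI* had a level of 5.03 CPM per kb with mocetinostat, and only *THBD*, at 1.95, was lower among the 8 genes. The order in between depends on the length used. Per kilobase of the longest protein-coding transcript, a length chosen after seeing the data, *PLAU* still led with DMSO at 68.7 CPM per kb, but *TFPI* was next at 48.3, and *TFPI2*, at 27.2, came after *PLAUR* and *SERPINE2*. By that length *TFPI2* also led with mocetinostat, at 211.5 CPM per kb, and *THBD* was last in both conditions.

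Ratios of 2 genes within a library do not depend on how libraries are scaled. Per kilobase of merged exons, the ratio of *TFPI2* to *TFPI* was 1.35, 1.55, and 1.78 in the DMSO samples and 31.0, 42.7, and 43.1 in the mocetinostat samples. The means of the log2 ratios differed by 4.63, against SDs of the log2 ratios of 0.20 between DMSO samples and 0.27 between mocetinostat samples. *TFPI2* made up 22.0% to 27.1% of the reads of this pair with DMSO and 86.6% to 90.0% with mocetinostat. The ratio was above 1 in all 6 samples by this length, and it was higher in each mocetinostat sample than in any DMSO sample.

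The ratio of *PLAT* to *PLAU*, the 2 activators, went from 0.0609, 0.0708, and 0.0714 to 0.454, 0.621, and 0.539, a log2 difference of 2.98. By this length *PLAT* was below *PLAU* in every sample, but the order with mocetinostat depends on the length, since per kilobase of the longest transcript the mean levels were 46.5 CPM per kb for *PLAT* and 43.3 for *PLAU*. The ratio of *PLAUR* to *PLAU*, receptor to ligand, went from 0.263, 0.293, and 0.247 to 0.842, 0.960, and 0.916, a log2 difference of 1.76. That of *F3* to its inhibitor *TFPI* went from 0.909, 1.08, and 1.24 to 4.15, 5.84, and 5.84, a log2 difference of 2.28. In each of these ratios the mocetinostat samples lay above all DMSO samples. The order of *PLAUR* and *PLAU* with mocetinostat also depends on the length. Per kilobase of the longest transcript, their mean levels were 97.3 and 43.3 CPM per kb. For the inhibitor *SERPINE2* the direction depended on the activator. Its ratio to *PLAU* went up by 1.79 on the log2 scale, from 0.150, 0.134, and 0.129 to 0.376, 0.591, and 0.480. Its ratio to *PLAT* went down, by -1.19, from 2.47, 1.89, and 1.81 to 0.828, 0.953, and 0.890. Per kilobase of the longest protein-coding transcript, *SERPINE2* stayed above *PLAT* with mocetinostat, at 64.33 against 52.55 CPM per kb. *SERPINE2* and *PLAT* were both higher with mocetinostat, and *PLAT* by more.

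**Figure D2:**
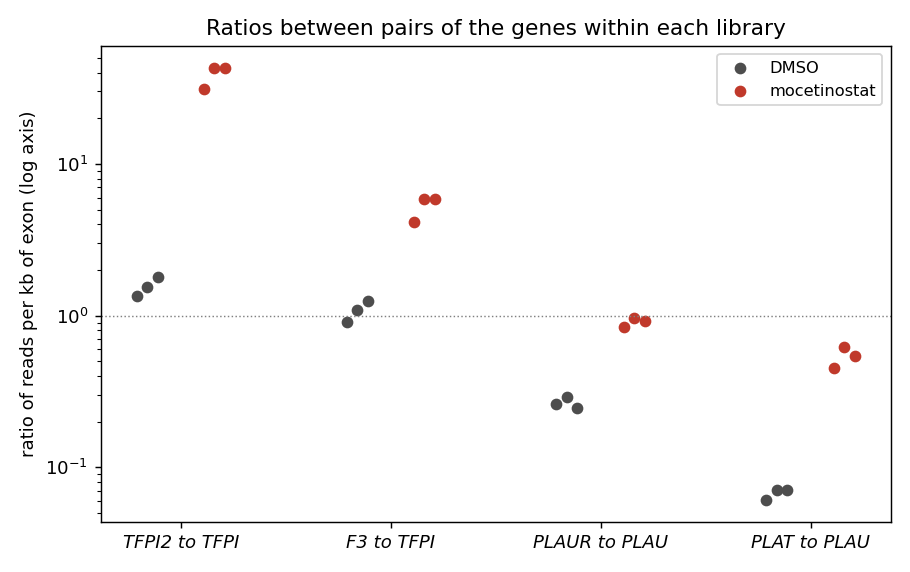
Ratio of reads per kilobase of exon for 4 pairs of genes (log y axis) in each DMSO sample (gray) and mocetinostat sample (red). The dotted line marks equal levels by the length of the merged exons. *TFPI2* to *TFPI* goes from 1.35 to 1.78 in the DMSO samples to 31.0 to 43.1 in the mocetinostat samples, and in all 4 pairs the conditions do not overlap.

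Apart from *THBD*, the 8 genes kept their direction under all 15 alternatives. When each library was left out, the log2 fold change lay between 2.92 and 2.96 for *TFPI2*, between 2.16 and 2.38 for *PLAT*, and between -1.85 and -1.53 for *TFPI*. Scaling each library to its *GAPDH* count moved the median of all genes by 0.53 on the log2 scale and the 8 genes with it, to 3.50 for *TFPI2*, 1.15 for *F3*, -1.07 for *TFPI*, and -0.11 for *PLAU*. Without an expression filter the normalization shifted the median to -0.25, and *PLAUR* and *SERPINE2* came to 0.85 and *F3* to 0.37. *THBD* had a log2 fold change of -0.20 without mocetinostat replicate 1 and of 0.60 under *GAPDH* scaling, so its sign is not set by these data.

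**Figure D3:**
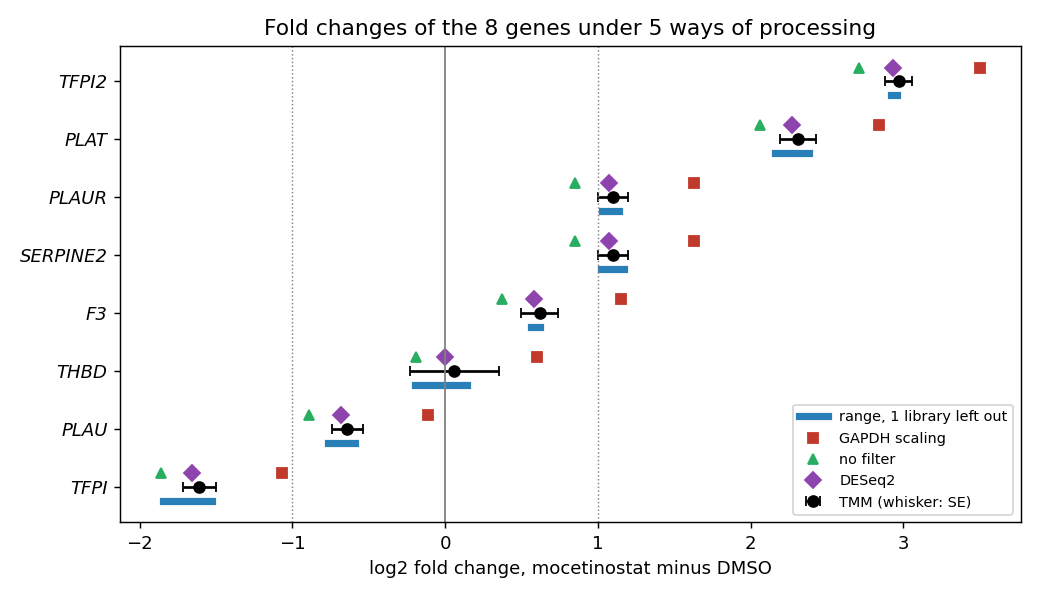
Log2 fold changes of the 8 genes, mocetinostat minus DMSO (x axis), from the TMM-normalized edgeR fit (black, whiskers SE), from DESeq2, without a filter, and under *GAPDH* scaling; blue bars span the fits with 1 library left out, and dotted lines mark -1 and 1. *TFPI2* lies between 2.71 and 3.50 and *TFPI* between -1.86 and -1.07, while *THBD* lies on both sides of 0.

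The genes whose profile over the 6 samples was nearest to that of *TFPI2*, by the Euclidean distance of log2 CPM centered per gene, were *ANKRD1* (distance 0.214), *LIPG* (0.221), *CDKN1A* (0.271), *NCAM1* (0.277), and *GPM6B* (0.281). Their log2 fold changes were 2.95, 3.17, 2.86, 3.03, and 4.36. *CDKN1A*, the cell cycle inhibitor p21, is a widely used marker gene of HDAC inhibition, and it went from 58.1 to 419.5 CPM. *ANKRD1*, a cardiac and muscle ankyrin repeat gene, went from 117.3 to 910.5 CPM. *GPM6B* was far less abundant, at 0.149 CPM with DMSO and 3.20 CPM with mocetinostat, a range in which log2 CPM with a prior count of 2 draws values together. With 6 samples in 2 groups, genes with a similar fold change and little spread come close by this measure.

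To place the 8 genes in their pathway, 73 other genes of plasminogen activation, its serpin and Kunitz-domain inhibitors, and early coagulation were followed. They were listed by role, with earlier results of these data known. The filter, which asks for a CPM of about 2.01 (before TMM) in 3 samples, kept 38. Of the 35 that were not tested, 20 held 3 counts or fewer in each sample. Among the 38, 13 (34.2%) were called upregulated at an adjusted p under 0.05 and a log2 fold change over 1, and 1 (2.63%) was called downregulated. Over all genes tested, 20.2% were called upregulated and 8.18% downregulated, 28.4% in all. Of the 13, *SORL1*, *SERPINI1*, *SERPINA1*, *SPINT1*, *SPINT2*, *PROC*, and *A2M* were below the filter in every DMSO sample. These 7 genes entered the test through the mocetinostat samples and had to differ. Nothing is therefore read from the share of genes called, over the list or by role below. The 7 genes are given below by their values without a p. Of all genes tested, 1030 were likewise below the filter in every DMSO sample, and 1018 of these were called upregulated. A further 15 genes of the list were higher and 2 lower at an adjusted p under 0.05 without reaching the fold threshold, and 7 did not pass. The median log2 fold change of the 38 genes was 0.67, and since it includes the 7 genes that had to differ, nothing is read from it.

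Plasminogen itself was barely detected, since the counts of *PLG* were 2, 3, and 0 in the DMSO samples and 2, 0, and 3 in the mocetinostat samples. The coagulation zymogens *F7*, *F10*, and *F2* also held at most 3 counts in any sample. Among 9 proteases and zymogens, 3 were tested, and the cysteine proteases *CTSB* and *CTSL*, which can activate pro-urokinase, were called. *CTSB* rose by 1.00 on the log2 scale (standard error 0.07, edgeR adjusted p = 3.88e-20) and *CTSL* by 1.06 (standard error 0.10, edgeR adjusted p = 2.10e-15). Both lie at the threshold, and *CTSB* lost its call without DMSO replicate 1, DMSO replicate 3, mocetinostat replicate 2, or mocetinostat replicate 3, with log2 fold changes from 0.95 to 0.98. *CTSB* also lost it with DESeq2, at 0.97, without a filter, at 0.75, and when glmTreat tested against a log2 fold change of 1. *CTSL* lost its call without DMSO replicate 1, at 0.95, without a filter, at 0.81, and with glmTreat.

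Of 11 genes for surface binding and clearance, 10 were tested and 2 called upregulated, of which *SORL1* was below the filter in every DMSO sample. *SORL1*, a sorting receptor of the LDL receptor family that binds plasminogen activators and their inhibitor complexes, was at 0.873 ± 0.282 CPM with DMSO and 35.8 ± 2.63 CPM with mocetinostat (SD, n = 3; log2 fold change 5.30, standard error 0.29). *VLDLR*, another endocytic receptor for such complexes, rose from 7.83 to 41.6 CPM (log2 fold change 2.41, standard error 0.19, edgeR adjusted p = 2.78e-18). *LRP1*, the main clearance receptor of this group, was higher by 0.63 on the log2 scale (edgeR adjusted p = 1.38e-08), below the fold threshold. Under *GAPDH* scaling *LRP1* was called, at 1.16. *ENO1*, a glycolytic enzyme that also binds plasminogen, was lower by a log2 fold change of -0.27 (edgeR adjusted p = 0.000116), which became 0.25 under *GAPDH* scaling.

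Of 13 serpins, 6 were tested and 3 called upregulated, of which *SERPINI1* and *SERPINA1* were below the filter in every DMSO sample. *SERPINB2*, which encodes the urokinase inhibitor PAI-2, rose from 10.6 ± 1.94 to 177.3 ± 2.42 CPM (SD, n = 3; log2 fold change 4.03, standard error 0.13, edgeR adjusted p = 1.05e-39). Another annotated gene on the same strand covers 20.0% of the *SERPINB2* exons, so its counts are uncertain to that extent. *SERPINI1* (neuroserpin, an inhibitor of tissue-type plasminogen activator) and *SERPINA1* (alpha-1-antitrypsin) had log2 fold changes of 2.78 and 2.19 (standard errors 0.54 and 0.56), from means below 1 CPM with DMSO. In mocetinostat replicates 1, 2, and 3, *SERPINI1* held 13, 12, and 21 counts and *SERPINA1* 21, 8, and 6.

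The Kunitz-domain proteins other than *TFPI* and *TFPI2* numbered 13, with 7 tested and 2 called upregulated, both below the filter in every DMSO sample. *SPINT1* (HAI-1) and *SPINT2* (HAI-2), membrane-bound inhibitors of trypsin-like proteases such as matriptase, were both at low levels with DMSO. *SPINT1* went from 1.14 to 23.9 CPM (log2 fold change 4.30, standard error 0.32) and *SPINT2* from 0.804 to 11.6 CPM (log2 fold change 3.72, standard error 0.44). Other annotated genes cover 12.2% of the *SPINT2* exons on the opposite strand and 4.76% on the same strand. The collagen genes *COL7A1* and *COL6A3*, whose products carry Kunitz domains, differed in direction, with log2 fold changes of 0.91 and -0.71 (edgeR adjusted p = 8.96e-17 and 1.40e-16), both under the fold threshold. Under *GAPDH* scaling *COL7A1* was called, at 1.43, and *COL6A3* was at -0.19.

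For coagulation and protein C, 6 of 17 genes were tested and *PROC*, below the filter in every DMSO sample, was called upregulated. Its counts were 7, 1, and 7 in the DMSO samples and 26, 7, and 8 in the mocetinostat samples (log2 fold change 2.70, standard error 0.56). *PROCR*, the endothelial protein C receptor, was higher by a log2 fold change of 0.93 (edgeR adjusted p = 3.04e-09), below the fold threshold. *PROCR* was called with 10 counts required in all samples, at 1.00, with thinned libraries, at 1.14, and under *GAPDH* scaling, at 1.46. Of the thrombin receptor family, *F2R* (PAR1), the main thrombin receptor, was the only listed gene called downregulated, from 135.2 ± 11.9 to 65.3 ± 13.3 CPM (SD, n = 3; log2 fold change -1.01, standard error 0.11, edgeR adjusted p = 3.18e-12). This call was lost without DMSO replicate 1, at -0.94, without mocetinostat replicate 2, at -0.91, and under *GAPDH* scaling, at -0.47. *F2RL2* (PAR3) rose by 1.42 on the log2 scale (edgeR adjusted p = 3.88e-05), a call that it lost with glmTreat.

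Among 6 other regulators, *TGM2*, the transglutaminase that cross-links matrix proteins, rose from 12.9 ± 0.738 to 78.0 ± 6.50 CPM (SD, n = 3; log2 fold change 2.59, standard error 0.15, edgeR adjusted p = 1.70e-25). *A2M*, a broad protease inhibitor that also traps plasmin, had counts of 1, 0, and 7 in the DMSO samples and 15, 9, and 12 in the mocetinostat samples (log2 fold change 3.46). Its log2 fold change was 2.78 without DMSO replicate 1 and 5.59 without DMSO replicate 3. *A2M-AS1* on the opposite strand covers 8.88% of its exons.

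**Figure D4:**
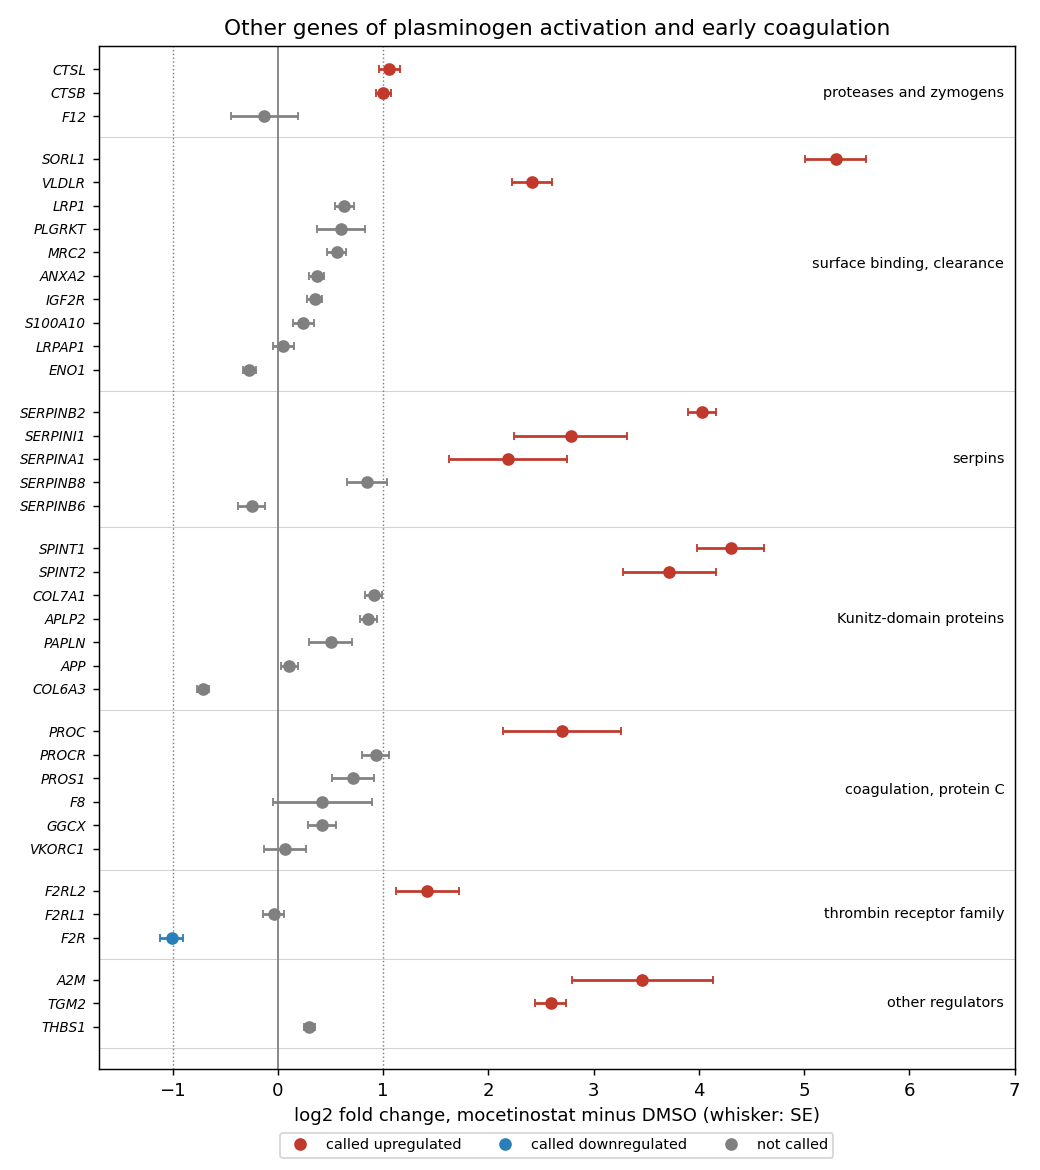
Log2 fold changes, mocetinostat minus DMSO (x axis, whiskers SE), of tested genes of the pathway other than the 8 genes, grouped by role; red marks genes called upregulated, blue called downregulated, gray not called, and dotted lines mark -1 and 1. The 13 called upregulated reach from *CTSB* at 1.00 to *SORL1* at 5.30, and *F2R* at -1.01 is the only gene called downregulated.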

How the data were processed

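Bulk RNA-Seq data of 6 TC28a2 samples (24 hours; 3 with mocetinostat at 2 μM, 3 with DMSO) were analyzed, grouped by their labels. The deposited values were whole raw counts of single reads per gene, not normalized. Adapter trimming and removal of ribosomal reads came first, and the authors then aligned reads to GRCh38 with STAR (version 2.6.1d) and counted with featureCounts (version 1.6.4). Strand and multi-mapping settings are not given in the sources used here, so genes with overlapping exons are uncertain to that extent. Totals were 11031132, 4873426, and 6926619 counts for DMSO replicates 1, 2, and 3 and 5089542, 1619344, and 2417199 for mocetinostat replicates 1, 2, and 3. Within conditions, pairs of samples differed by more than sampling noise (chi-square per degree of freedom 1.96 to 7.19), so none was treated as a library deposited again. This does not show that they came from separate cultures.

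edgeR 4.0.16 (R 4.3.3, limma 3.58.1) was used for TMM factors and for filterByExpr (minimum count 10), which kept 13966 of 60623 genes, and fitted the quasi-likelihood model with the treatment as its term. Benjamini-Hochberg adjustment was over all genes tested, and calls needed an adjusted p under 0.05 together with a log2 fold change over 1 or under -1. The standard error is the log2 fold change divided by the square root of F. Exons, lengths, and gene positions are from GENCODE 44 (99.46% of genes matched by identifier), and promoter windows from RefSeq. The paper names an Ensembl build as its reference, so exon lengths and overlaps may differ from the gene models used in counting. The fit was tested on simulated data.

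The members and lists were chosen with earlier results of these data known. The genes named are the 8 genes, every gene of the pathway list that was called, the nearest protein-coding gene on each side of each of the 8 genes, and the 5 genes nearest in profile to *TFPI2*. *PLG*, *F7*, *F10*, *F2*, *LRP1*, *ENO1*, *COL6A3*, *COL7A1*, and *PROCR* were named after their values were seen. Alternatives were DESeq2 1.42.0, RLE factors, library size only, *GAPDH* scaling, glmTreat, a block for the replicate number, leaving out the filter, requiring 10 counts in all samples, libraries thinned to the smallest total, and each sample left out. The values of 1 gene of the pathway list are not reported here, although its calls are in the counts, and the paper's other experiments were not analysed here.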

Additional observations from a re-analysis of the deposited data

How the results depend on the processing

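Over all genes, 2827 were called upregulated and 1142 downregulated, so that 71.2% of the calls were upregulated. With GAPDH scaling these counts were 4425 and 284 (94.0% upregulated), and they were 1620 and 704 where all samples had to reach 10 counts. Without a filter 2120 genes were called downregulated, and with glmTreat 465. In the pathway list, 13 genes were called upregulated, 23 with GAPDH scaling and 8 with at least 10 counts required in each sample. The 1 gene called downregulated, *F2R*, lost its call, leaving 0, under RLE factors, library size only, GAPDH scaling, the 10-count minimum, glmTreat, and thinned libraries. Leaving out each sample, the list held 12 to 16 genes called upregulated and 0 to 1 called downregulated. No gene among the 8 with an absolute log2 fold change over 0.1 changed sign under any of the 15 alternatives. With the replicate number as a block, 2798 genes were called upregulated and 1133 downregulated, and in the list 13 and 1. The deviations of same-numbered samples correlated at 0.008, 0.012, and -0.016, and those of differently numbered samples at -0.028 to 0.026. Whether the numbers pair the samples was not tested. The totals of 1619344 to 2417199 counts in mocetinostat replicates 2 and 3 limit what can be said of *THBD*, at 11 and 17 counts there, and of the genes the filter removed.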

Other observations

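The nearest protein-coding genes on each side of the 8 genes, 16 in all, were looked up. The filter kept 9, of which 3 were called upregulated and 0 downregulated by edgeR's quasi-likelihood test, where 20.2% and 8.18% of all genes tested were called. *CADM4*, a cell adhesion gene 6.2 kb from *PLAUR*, rose from 9.17 ± 1.53 to 40.6 ± 7.81 CPM (SD, n = 3; log2 fold change 2.09, standard error 0.20, edgeR adjusted p = 2.76e-15). *VCL*, which encodes the focal adhesion protein vinculin, lies 77.7 kb from *PLAU* and rose from 571.8 to 1512 CPM (log2 fold change 1.40, edgeR adjusted p = 3.05e-30), where *PLAU* itself was lower. *GNG11*, a G protein gamma subunit gene 31.0 kb from *TFPI2*, rose from 25.6 to 57.5 CPM (log2 fold change 1.19, edgeR adjusted p = 3.17e-11), and it lost its call without a filter, at 0.93, and with glmTreat. *GULP1*, the neighbor of *TFPI* at 725.9 kb, was lower by a log2 fold change of -0.64 (edgeR adjusted p = 4.82e-05), under the fold threshold. *AP3M2*, 3.0 kb from *PLAT*, was at 50.9 CPM with DMSO and 49.1 CPM with mocetinostat (log2 fold change -0.04, edgeR adjusted p = 0.82). *IKBKB*, *CAMK2G*, and *ABCD3* had log2 fold changes of 0.79, 0.73, and 0.84, and *MRPL44* one of -0.10.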
